A study of Mus musculus with 24 samples.

Results

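The gene pair Npy and Agrp, which marks the hunger-promoting AgRP neurons of the arcuate nucleus, was followed here together with Corin and Acvr1c, 2 further genes of those neurons, and with the NPY receptor genes Npy1r, Npy2r and Npy5r. These 7 genes were taken by gene symbol from the 55471 genes of a hypothalamic RNA-seq count table, and all 7 passed the filter on low counts that left 18992 genes for testing. Hypothalami came from 18-week-old male C57BL6/J mice that ate chow freely, were housed singly and carried a gastric catheter. ExpOF mice received experimental overfeeding, a sucrose-enriched liquid diet infused into the stomach until 150% of energy infusion was reached on day 9, and Control mice received sterile water at matched flow rates. Mice were killed on day 14 of infusion (Control d14 and ExpOF d14) or on day 17, 3 days after overfeeding ended and when both arms received water (Control d14+3 and ExpOF d14+3). The day 17 comparison therefore set mice recovering from overfeeding beside their own water-infused controls.

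Each group held 6 libraries, 1 per mouse, with 3 mice killed in July and 3 in September, and library totals ran from 8928182 to 34848437 counts. The study removed 1 Control d14 mouse for poor RNA quality, identified here as replicate 4 (its labelled RNA integrity number, 9.8, was not low), so that Control d14 had n = 5 and 23 libraries entered the tests. The RNA integrity number ranged from 7.2 to 10 in these libraries. Its mean on d14 was 9.20 ± 0.86 in Control (SD, n = 5) and 9.75 ± 0.14 in ExpOF (n = 6; two-sided exact permutation p = 0.219). On d14+3 it was 8.62 ± 1.09 in Control and 9.43 ± 0.45 in ExpOF (n = 6 each; exact permutation p = 0.134). Tests on so few mice cannot show that the groups were balanced. Control d14+3 replicates 4, 5 and 6, all labelled extraction round 2, had 7.9, 7.2 and 7.9, and the lowest number in ExpOF d14+3 was 8.8. Whole hypothalami were sequenced, so the cells that the reads of a gene came from, AgRP neurons or others, are not known. Fewer cells of a type and less RNA per cell cannot be told apart in any value that follows.

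AgRP neurons sense energy stores through receptors for leptin, insulin and ghrelin. They drive feeding by releasing neuropeptide Y, agouti-related protein and GABA, and agouti-related protein acts as an inverse agonist of melanocortin receptors on neighbouring neurons. Neuropeptide Y acts on G protein-coupled receptors. Of these, Y1 and Y5 mediate much of its action on feeding, and Y2 is largely a presynaptic autoreceptor that restrains NPY release. Corin encodes a serine protease that cleaves pro-atrial natriuretic peptide, and Acvr1c encodes ALK7, a type I receptor of the activin and TGF-beta family. In the mouse, fasting raises Npy and Agrp mRNA and leptin lowers both.

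On mm10, Npy (ENSMUSG00000029819) lies on the plus strand of chromosome 6 from 49822710 to 49829507, has 566 counted exon bases and overlaps no other annotated gene. Agrp (ENSMUSG00000005705) lies on the minus strand of chromosome 8 from 105566698 to 105637393 in this annotation. Of its 1013 exon bases, 114 (11.3%) are shared with exons of Ctcf on the opposite strand and of Gm5914 on the same strand, and reads from those bases cannot be assigned to Agrp with certainty. Corin (ENSMUSG00000005220) lies on the minus strand of chromosome 5 from 72300025 to 72504473, and Acvr1c (ENSMUSG00000026834) on the minus strand of chromosome 2 from 58267453 to 58357895. Corin shares 2.72% of its exon bases with an antisense gene, and Acvr1c shares 1.81%. Npy2r (ENSMUSG00000028004) lies on the minus strand of chromosome 3 from 82538383 to 82547960. Npy5r (ENSMUSG00000044014, chromosome 8 from 66679965 to 66688094, minus strand) and Npy1r (ENSMUSG00000036437, chromosome 8 from 66697192 to 66706792, plus strand) stand head to head with 9097 bases between them.

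RefSeq promoter windows on GRCm38.p6, 250 bases before to 50 after the transcription start (positions below count the first base of a motif from that start), were given for 6 of the 7 genes, Agrp being without an entry. Here 3 windows are shown, that of Npy because it was the gene called after overfeeding, and those of Npy2r and Npy5r because these genes had the highest Pearson r among mice, although Acvr1c and Npy1r ranked above them by Spearman rho. They are written 5′ to 3′ on the gene's own strand, with capitals for GC boxes (GGGCGG on either strand) and for the TATA-like ATAAAA, a motif added to the search after the Npy sequence had been read.
Npy, chr6:49822460-49822759, plus strand: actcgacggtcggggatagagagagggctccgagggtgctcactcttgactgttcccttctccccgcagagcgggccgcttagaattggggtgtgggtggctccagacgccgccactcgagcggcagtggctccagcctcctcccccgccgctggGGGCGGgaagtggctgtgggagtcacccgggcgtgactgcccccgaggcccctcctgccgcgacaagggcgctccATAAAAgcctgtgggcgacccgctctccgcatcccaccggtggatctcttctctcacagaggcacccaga
Npy2r, chr3:82548036-82548335, minus strand: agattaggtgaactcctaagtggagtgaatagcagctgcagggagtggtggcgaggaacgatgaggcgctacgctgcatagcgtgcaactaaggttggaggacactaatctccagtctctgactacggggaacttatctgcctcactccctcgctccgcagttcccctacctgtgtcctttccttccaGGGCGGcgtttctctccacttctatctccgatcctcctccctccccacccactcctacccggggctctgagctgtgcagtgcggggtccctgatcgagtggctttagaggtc
Npy5r, chr8:66688045-66688344, minus strand: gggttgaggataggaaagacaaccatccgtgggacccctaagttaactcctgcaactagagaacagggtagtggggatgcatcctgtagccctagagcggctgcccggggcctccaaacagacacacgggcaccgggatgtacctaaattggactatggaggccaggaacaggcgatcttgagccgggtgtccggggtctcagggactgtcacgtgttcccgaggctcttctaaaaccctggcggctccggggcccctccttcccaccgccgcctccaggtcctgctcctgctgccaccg
The Npy window was rich in G and C (68%) and held ATAAAA at -20 and a GC box at -95, motifs present on either strand in 18.5% and 35.7% of all 32851 promoter windows. It held no match to a STAT site (TTCNNNGAA, in 8.3% of windows), a FOXO core (GTAAACA, 3.65%), a CRE half-site (TGACG, 20.8%), the TATA box TATAAA (13.6%) or an E-box (CANNTG, 72.3%). The Npy2r window held a GC box at -62 and an E-box at -218, and the Npy5r window an E-box at -40 and no other searched motif.

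Per kilobase of exon, Npy stood highest among the 7 genes and Corin lowest. Averaged over the 23 libraries, levels were 28.2 CPM (counts scaled to 1000000 per library) per kilobase for Npy, which placed it at the 91.1 percentile of tested genes, 8.26 for Npy2r, 5.57 for Npy1r, 5.54 for Agrp, 2.36 for Npy5r, 1.11 for Acvr1c and 0.242 for Corin. Single libraries ranged from 17.3 to 50.5 CPM per kilobase for Npy and from 5.54 to 10.8 for Npy2r, which did not overlap, whereas Npy1r (4.12 to 7.43) and Agrp (3.70 to 11.03) could not be ordered beyond their spread. All 10 listed markers of other hypothalamic nuclei (among them Avp, Oxt, Hcrt and Pmch) and 7 of 8 listed markers of other arcuate neurons were measured above the filter, while Kiss1 was at 0 in every library. All 6 listed thalamus markers were present too, at summed levels of 470 to 1191 CPM over the 23 libraries. Hypothalamic neurons also express some of these, Slc17a6 among them.

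The first question was how the 7 genes stood at the end of overfeeding. Npy was lower in every ExpOF d14 mouse than in any Control d14 mouse. In the 5 Control d14 libraries Npy was at 18.3, 21.7, 26.2, 26.5 and 28.6 CPM. In the 6 ExpOF d14 libraries its lowest level was 9.80, its median 11.2 and its highest 13.0 CPM. The groups did not overlap. The overfed mice averaged 11.3 ± 1.32 CPM (SD, n = 6) and the controls 24.3 ± 4.17 CPM (n = 5). These SDs were 11.7% and 17.2% of the means, and the difference in spread was not tested. The fitted log2 fold change was -1.10 (standard error 0.12, 95% interval -1.35 to -0.85), a level 0.467 times that of controls, with adjusted p = 4.69e-05 in edgeR's quasi-likelihood test with Benjamini-Hochberg adjustment over 18992 genes. Npy ranked 1 by p-value, and it was the only gene called, which makes the called share of all tested genes 0.00527%. Npy was lower in the July mice (log2 CPM difference -1.05, n = 3 against 3) and in the September mice (-1.13, n = 3 against 2). A fit to either cohort alone called no gene (adjusted p = 0.24 and 0.639 for Npy, edgeR).

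Agrp, the other peptide gene of these neurons, followed the same order with a larger spread among controls. Its Control d14 levels were 5.93, 6.48, 9.21, 10.2 and 11.2 CPM. Its ExpOF d14 levels ran from 4.02 CPM through a median of 4.38 to 5.51 CPM. Every overfed mouse again lay below every control, by a margin of less than 1 CPM at the nearest values. The log2 fold change was -0.90 (standard error 0.18, 95% interval -1.26 to -0.53), and Agrp ranked 5 of 18992 genes by p-value but missed the threshold (adjusted p = 0.117, edgeR). DESeq2's Wald test on the same counts, which called 166 genes or 0.990% of those it adjusted, did call Agrp (adjusted p = 0.00338). Leaving out Control d14 replicate 1 (adjusted p = 0.0173, edgeR) or replicate 3 also brought Agrp past the threshold, at log2 fold changes of -0.97 and -1.004. In the first of these fits 22.0% of all genes were called, and in the second 0.0157%. Taken singly, the log2 CPM of Npy and of Agrp each differed on d14 at the smallest p that 6 against 5 mice allow (two-sided exact permutation p = 0.00216). Groups without overlap in which ExpOF was lower were found for 0.958% of all tested genes.

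**Figure D1:**
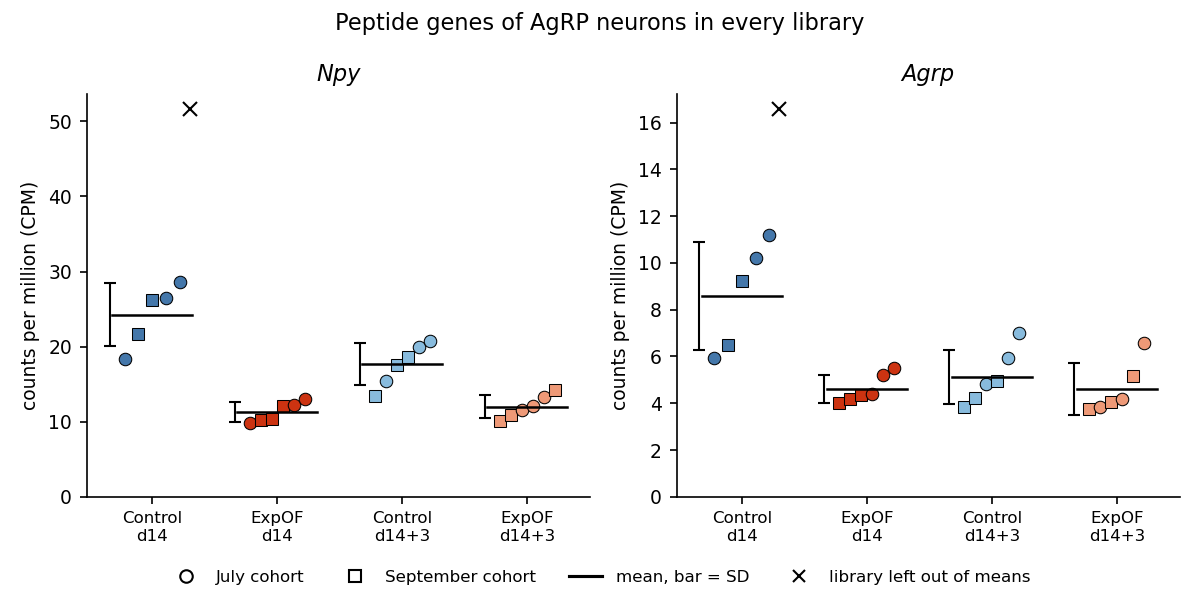
Npy (left) and Agrp (right) in CPM for every library of the 4 groups. Circles are July mice, squares September mice, lines group means and bars SD, and the cross is the Control d14 library left out of the means. Npy in ExpOF d14 libraries sits between 9.80 and 13.0 CPM, below all Control d14 libraries (18.3 to 28.6 CPM), and the Control d14+3 libraries lie below most Control d14 libraries for both genes.

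The remaining 5 genes had fitted values above 0 on d14, and none passed the threshold. Without Control d14 replicate 1, where 22.0% of all genes were called, Acvr1c (log2 fold change 0.51, adjusted p = 0.0224, edgeR) and Npy1r (0.33, adjusted p = 0.032) did pass. Acvr1c, the ALK7 receptor gene, was at 5.98, 7.24, 7.28, 7.78 and 8.72 CPM in Control d14 and from 8.20 through a median of 10.5 to 11.5 CPM in ExpOF d14. Of the 6 overfed mice, 5 lay above every control. Its log2 fold change was 0.44 (95% interval 0.16 to 0.73, adjusted p = 0.135, edgeR; two-sided exact permutation p = 0.00866 for this gene alone). Corin had few counts, at 1.19 ± 0.428 CPM (n = 5) in Control d14 and 1.51 ± 0.463 CPM (n = 6) in ExpOF d14. Its interval reached from -0.13 to 0.92, and its direction could not be told at this depth.

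The Y1 receptor gene Npy1r was tightly grouped in overfed mice, at 20.3 ± 0.80 CPM with a range of 19.4 to 21.7 CPM. In Control d14 it was at 14.6, 16.2, 16.9, 17.2 and 21.3 CPM, so that the highest control lay among the overfed mice. The log2 fold change was 0.24 (95% interval 0.02 to 0.45, adjusted p = 0.164, edgeR). Npy5r, the Y5 receptor gene, was at 5.57 ± 0.413 CPM in controls and 6.56 ± 0.854 CPM in ExpOF d14 (log2 fold change 0.24, 95% interval -0.01 to 0.49, adjusted p = 0.208, edgeR). Npy2r, the Y2 autoreceptor gene, differed least (27.8 ± 5.73 and 30.9 ± 2.57 CPM; log2 fold change 0.16, 95% interval -0.12 to 0.43, adjusted p = 0.434, edgeR). Without the threshold on adjusted p, 4 of the 7 genes had p under 0.05 on d14 (Npy and Agrp lower, Acvr1c and Npy1r higher), against 26.7% of all tested genes, so a share of this kind was common that day.

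**Figure D2:**
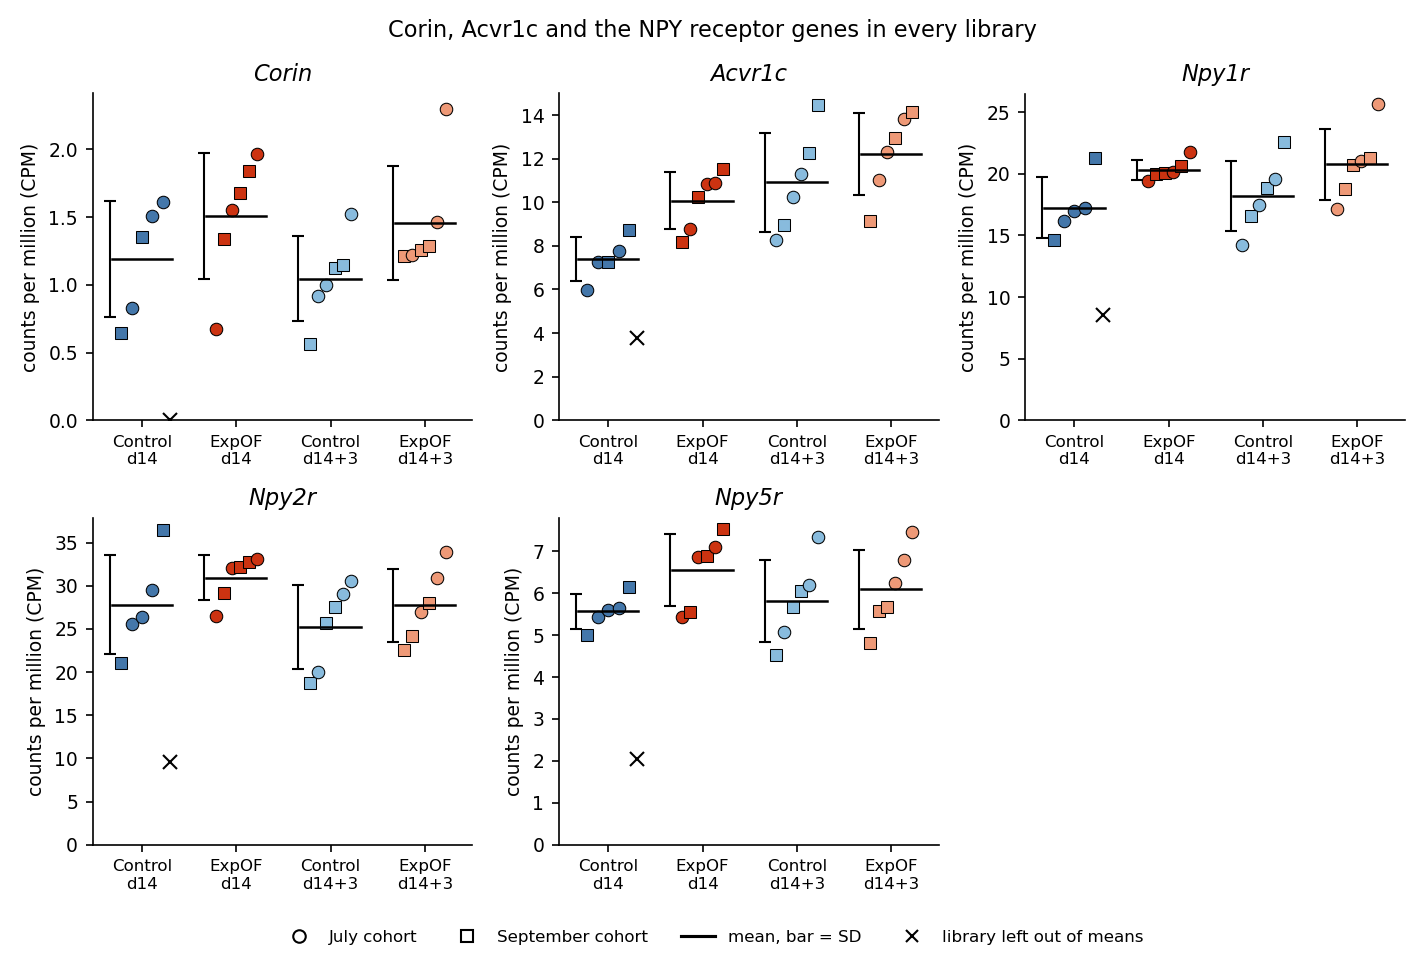
Corin, Acvr1c, Npy1r, Npy2r and Npy5r in CPM for every library, drawn as in the plot of the peptide genes. Acvr1c rises from 7.40 ± 0.993 CPM in Control d14 to 10.9 ± 2.27 CPM in Control d14+3, and the 3 receptor genes overlap between all groups.

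The second question was what remained 3 days after the diet stopped. Npy was from 10.0 through a median of 11.8 to 14.2 CPM in ExpOF d14+3, and from 13.5 through 18.1 to 20.8 CPM in Control d14+3. Of the 6 mice that had been overfed, 5 lay below all controls, and the highest of them lay above the lowest control. The log2 fold change was -0.56 (95% interval -0.80 to -0.32), and Npy ranked 6 by p-value but did not pass the threshold (adjusted p = 0.206, edgeR). No gene did (0.00% of those tested), although 7.11% had p under 0.05, and DESeq2 called 55 genes (0.343%), Npy among them (adjusted p = 0.00968). The log2 CPM difference of Npy between ExpOF d14+3 and Control d14+3 was -0.59 in the July mice and -0.50 in the September mice (n = 3 against 3 in each). The exact permutation p for Npy alone was 0.00433.

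Agrp no longer differed beyond the spread of replicates on d14+3. It was from 3.74 through a median of 4.12 to 6.59 CPM in ExpOF d14+3 and from 3.86 through 4.88 to 6.99 CPM in Control d14+3, ranges that overlap over most of their length. The log2 fold change was -0.15 (95% interval -0.51 to 0.20, adjusted p = 0.811, edgeR). Corin had the largest value among the other genes, at 1.46 ± 0.422 CPM against 1.05 ± 0.315 CPM (n = 6 each; log2 fold change 0.46, 95% interval -0.05 to 0.98, adjusted p = 0.737, edgeR), and the value was 0.30 without ExpOF d14+3 replicate 6. Acvr1c (log2 fold change 0.17), Npy1r (0.19), Npy2r (0.14) and Npy5r (0.07) had intervals that included 0.

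The days were then compared within each arm. In overfed mice neither peptide gene differed between the days beyond the spread of replicates. Npy averaged 11.3 ± 1.32 CPM on d14 and 12.01 ± 1.53 CPM on d14+3 (log2 fold change 0.08, 95% interval -0.16 to 0.32, adjusted p = 0.93, edgeR), and Agrp averaged 4.62 ± 0.603 and 4.60 ± 1.10 CPM (-0.01, 95% interval -0.37 to 0.35). In control mice both were lower on d14+3. Agrp fell from 8.60 ± 2.30 CPM (n = 5) to 5.13 ± 1.16 CPM (n = 6), with 4 of the 6 later controls below every earlier one (log2 fold change -0.75, 95% interval -1.11 to -0.39, adjusted p = 0.0284, edgeR). Npy stood at 24.3 ± 4.17 CPM and then 17.6 ± 2.78 CPM, with 3 of 6 below every earlier control (-0.46, 95% interval -0.70 to -0.22), and missed the threshold (adjusted p = 0.0527, edgeR). DESeq2, which called 3.24% of genes between the control days, did call Npy (adjusted p = 0.0115). Npy passed in 5 of 16 other settings and in 4 of 11 fits with a library left out.

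Acvr1c moved the other way in controls, from 7.40 ± 0.993 to 10.9 ± 2.27 CPM, and 5 of 6 later controls lay above every earlier one (log2 fold change 0.56, 95% interval 0.28 to 0.84, adjusted p = 0.0395, edgeR). Its ExpOF levels of 10.1 ± 1.31 and 12.2 ± 1.88 CPM differed in the same direction (0.28, 95% interval 0.02 to 0.55, adjusted p = 0.576). The receptor genes had fitted differences between the control days of 0.08 for Npy1r, -0.14 for Npy2r and 0.06 for Npy5r on the log2 scale. Thus 2 of the 7 genes were called between the control days, where 1.15% of all tested genes were called. Neither call held in every fit. With each of the 11 control libraries left out in turn, Agrp kept its call in 4 fits, its log2 fold change running from -0.86 to -0.64 and its adjusted p (edgeR) from 0.0122 to 0.135, and Acvr1c kept its call in 4 fits (0.46 to 0.63, adjusted p 0.0189 to 0.155). For both genes the highest adjusted p came without Control d14 replicate 2. For Agrp the call was also lost without Control d14 replicate 5 or 6 or Control d14+3 replicate 1, 2, 4 or 6, and for Acvr1c without Control d14 replicate 3, 5 or 6 or Control d14+3 replicate 2, 4 or 6. Of 16 other settings, Agrp was called in 10 and Acvr1c in 7. Fits to 1 cohort alone, to the 2 control groups alone and with a replicate block called neither gene, and Acvr1c also lost its call with the RNA integrity number, with cohort and extraction round, and with scaling by library totals alone. The marker covariates, given further on, were the remaining settings that ended both calls.

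Whether the overfeeding difference itself differed between d14 and d14+3 was tested as an interaction. Its log2 estimate was 0.54 for Npy (95% interval 0.20 to 0.89) and 0.74 for Agrp (0.23 to 1.25). By p-value Npy ranked 35 and Agrp 71 of 18992 genes, and the adjusted p was 0.903 for each (edgeR). No gene passed (0.00%), in edgeR or in DESeq2, and 4.42% had p under 0.05 in edgeR. For the other 5 genes the interval of the interaction included 0.

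**Figure D3:**
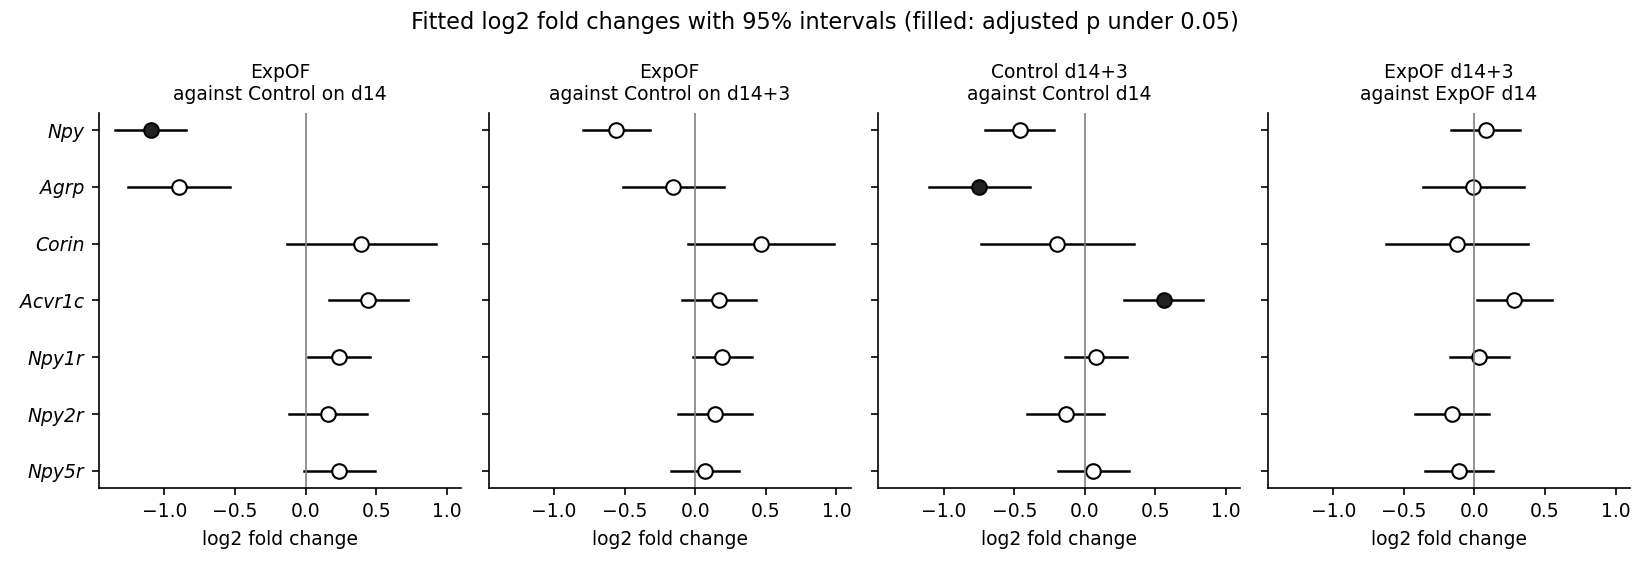
Log2 fold changes of the 7 genes with 95% intervals in 4 comparisons from the edgeR fit. Filled points passed an adjusted p of 0.05. Npy at d14 (-1.10) is the only filled point among the overfeeding comparisons, and Agrp (-0.75) and Acvr1c (0.56) are filled between the control days.

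Markers of tissue around the arcuate nucleus moved between the days as well. All 6 listed thalamus markers had p under 0.05 and were higher in Control d14+3 than in Control d14, with a median log2 fold change of 0.88, while 6.81% of all tested genes were higher with such a p. Of these, 2 were called, Rora (66.4 ± 15.2 to 127 ± 19.1 CPM, log2 fold change 0.94) and Slc17a6 (0.29), Prkcd had the largest p, and the summed level of the list ran from 470 to 814 CPM in Control d14 and from 745 to 1139 CPM in Control d14+3. Between ExpOF d14 (504 to 732 CPM) and ExpOF d14+3 (730 to 1191 CPM) the same 6 markers were higher with p under 0.05 (5.39% of all tested genes) and a median of 0.89, and there Npy and Agrp had 0.08 and -0.01. Of 7 cortex and hippocampus markers tested, 5 were higher in Control d14+3 and Prox1 was called. Of 10 markers of other hypothalamic nuclei, 9 were lower in Control d14+3, and Hdc, the histamine synthesis gene, was called. Lower calls made up 0.195% of all tested genes and higher calls 0.953%. Of 2 pituitary hormone genes tested, Gh, the growth hormone gene, was called lower (log2 fold change -7.17, a fitted value that rests on few counts on d14+3, adjusted p = 0.03, edgeR) and Tshb had a value of 0.22. Gh was at 94.8, 20.5, 7.18, 3.16 and 0 CPM in Control d14 replicates 1, 2, 5, 6 and 3, and at 0 in 4 of the 6 Control d14+3 libraries (highest 0.605 CPM). All 5 tanycyte and ependymal markers were lower, with Col23a1 called (29.3 ± 2.55 to 21.6 ± 2.99 CPM, log2 fold change -0.44, adjusted p = 0.0198) and Crym at the largest p. All 4 choroid plexus markers tested were lower too, 3 of them with p under 0.05, with Ttr at the smallest p and Aqp1 at the largest and none called. Their lower values rest on Control d14 replicate 5, where the summed list stood at 2993 CPM. The other Control d14 libraries ran from 10.6 to 17.5 CPM and the Control d14+3 libraries from 9.79 to 45.9 CPM. The part of pituitary, ventricular and choroid tissue in the values of Npy, Agrp and Acvr1c was not tested. On the striatum, astrocyte, oligodendrocyte, microglia and endothelial lists none of 22 genes was called between the control days (4 with p under 0.05) or on d14 (7). Of 7 other arcuate markers, 5 were lower and Pdyn, the prodynorphin gene, was called (73.0 ± 7.92 to 54.8 ± 5.08 CPM, log2 fold change -0.41).

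With the mean level of the thalamus list as a covariate, no gene passed between the control days, and the values were -0.57 for Npy, -0.68 for Agrp and 0.65 for Acvr1c (adjusted p = 0.119 each, edgeR). The summed list overlapped little between Control d14 (470 to 814 CPM) and Control d14+3 (745 to 1139 CPM). This fit therefore cannot well separate the level of the thalamus markers from the day. With the level of the other arcuate markers as a covariate they were -0.34, -0.56 and 0.45, and none of the 3 passed (adjusted p 0.176 to 0.251, edgeR). The part of the dissected tissue in the day differences was not tested further.

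On d14 the thalamus list did not separate the arms (0 of 6 with p under 0.05, median log2 fold change -0.15), but other arcuate markers did lean. Of the 7 tested, 6 were lower in ExpOF d14 and 5 of these had p under 0.05 (13.6% of all genes were lower with such a p). Their median log2 fold change was -0.45, beside -0.02 over all genes. Th, the dopamine synthesis gene, had the smallest p (53.4 ± 24.0 and 33.8 ± 2.83 CPM, log2 fold change -0.66, adjusted p = 0.135, edgeR) and Tac2 the largest. The summed list ran from 310 to 464 CPM in Control d14 and from 281 to 306 CPM in ExpOF d14, without overlap. The lean was not limited to arcuate markers. Of 10 markers of other hypothalamic nuclei, 8 were lower in ExpOF d14, 4 of them with p under 0.05. The other 2 were higher, 1 of them with such a p. Their median was -0.15, with Hcrt at the smallest p (-0.69, adjusted p = 0.135, edgeR) and Pmch at the largest. Of 2 pituitary hormone genes tested, Gh was lower (-2.88) and Tshb was not (0.27). With the level of the other arcuate markers as a covariate, Npy kept a log2 fold change of -0.96 and its call (adjusted p = 0.000784, edgeR), and Agrp had -0.69 (adjusted p = 0.543). Since the summed arcuate list did not overlap between the arms, this fit cannot separate the level of those markers from overfeeding. With the thalamus list instead, Npy stood at -1.09 (adjusted p = 3.77e-05). Choroid plexus markers ranged from 10.6 to 2993 CPM in Control d14 and from 9.02 to 15.2 CPM in ExpOF d14, and Npy kept its call without Control d14 replicate 5, the library at 2993 CPM.

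The ratio of Npy to Agrp within a library, taken per kilobase, does not depend on how libraries are scaled. It can still vary with the slope of expression on transcript length, described further on. That slope correlated with Npy at r = -0.70 and with Agrp at r = -0.35, and its part in the ratio was not tested. The part of reads from cells other than AgRP neurons in the ratio was not tested either. The ratio was 5.17 ± 0.60 in Control d14 (n = 5), 4.40 ± 0.510 in ExpOF d14, 6.27 ± 0.925 in Control d14+3 and 4.85 ± 1.09 in ExpOF d14+3 (n = 6 each). In single libraries it ran from 3.47 to 7.89, and the groups overlapped. It was lower in overfed mice on d14 (log2 difference -0.23, two-sided exact permutation p = 0.0455) and on d14+3 (-0.39, exact p = 0.039), higher in Control d14+3 than in Control d14 (0.27, exact p = 0.039), and not distinguishable between the ExpOF days (0.11, exact p = 0.45). These 4 p-values were not adjusted for one another. With 1 library left out in turn the sign never changed, but most exact p-values rose above 0.05. The d14 difference (-0.29 to -0.18) kept p under 0.05 only without ExpOF d14 replicate 4 or Control d14 replicate 2 or 6. The d14+3 difference (-0.47 to -0.30) kept it without ExpOF d14+3 replicate 2, 4, 5 or 6 or Control d14+3 replicate 5, and the difference between control days (0.20 to 0.33) without Control d14 replicate 1 or Control d14+3 replicate 5 or 6.

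**Figure D4:**
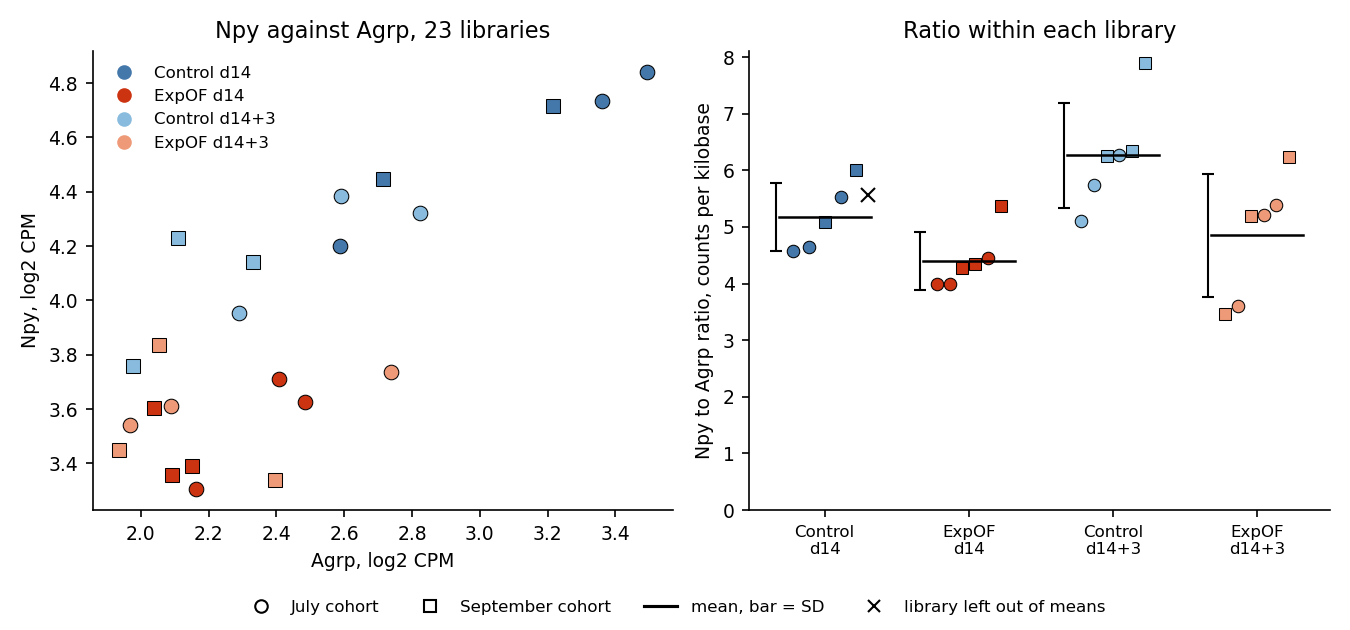
Left, log2 CPM of Npy against log2 CPM of Agrp in 23 libraries, coloured by group. Right, the ratio of Npy to Agrp per kilobase in every library, drawn as in the plot of the peptide genes. The ratio averages 6.27 in Control d14+3 and 4.40 in ExpOF d14, and the groups overlap.

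Among mice of the same group, genes of the set varied together in separate patterns. For 23 mice, deviations of log2 CPM from the group mean were correlated for all 21 pairs, with permutation p-values adjusted over the 21. Npy and Agrp varied together (Pearson r = 0.66, adjusted permutation p = 0.017; Spearman rho = 0.62, adjusted p = 0.0289), and r was 0.53 without the 2 mice farthest from the median. The receptor genes Npy2r and Npy5r had the highest r (0.77, adjusted permutation p = 0.00042; rho = 0.75, adjusted p = 0.00158; r = 0.72 without the 2 farthest mice). Npy1r followed Npy2r (r = 0.75, adjusted permutation p = 0.00693; rho = 0.70, adjusted p = 0.015; 0.75 without the 2 farthest). Npy1r also followed Acvr1c (r = 0.68, adjusted permutation p = 0.0153; rho = 0.80, adjusted p = 0.00158; 0.60). Npy and Acvr1c varied in opposite directions (r = -0.60, adjusted permutation p = 0.0271; rho = -0.60, adjusted p = 0.0289; -0.59). Npy and Npy1r passed by rank alone (rho = -0.58, adjusted permutation p = 0.0372; r = -0.36, adjusted p = 0.305), and the remaining 15 pairs did not pass by either measure.

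Part of this shared variation ran with transcript length. Within each library, the slope of expression on log transcript length, relative to the other libraries, was lower where short transcripts were relatively abundant. Over the 23 mice, with group means removed and p-values adjusted over the 7 genes, the slope correlated negatively with Npy (r = -0.70, adjusted permutation p = 0.00406; rho = -0.76, adjusted p = 0.00217; -0.63 without the 2 mice farthest from the median), whose counted exons are the shortest of the 7. It correlated positively with Acvr1c, the longest (r = 0.68, adjusted permutation p = 0.00406; rho = 0.64, adjusted p = 0.00751; 0.52), with Npy1r (r = 0.68, adjusted permutation p = 0.00635; rho = 0.73, adjusted p = 0.00371; 0.59) and with Npy2r (r = 0.72, adjusted permutation p = 0.00495; rho = 0.68, adjusted p = 0.00782; 0.64). Agrp, the next shortest (r = -0.35, adjusted permutation p = 0.189), and Corin, the next longest (0.43, adjusted p = 0.0896), did not pass. Nor did Npy5r (0.38, adjusted permutation p = 0.0904). Once the slope was removed, r stood at 0.62 for Npy and Agrp and at 0.78 for Npy2r and Npy5r, but at -0.23 for Npy and Acvr1c. It also stood at 0.40 for Acvr1c and Npy1r and at 0.52 for Npy1r and Npy2r, and it turned positive for Npy and Npy1r (0.22). None of the 7 genes passed against the RNA integrity number (r from -0.36 to 0.05, smallest adjusted permutation p = 0.514; rho from -0.41 to -0.00099, smallest adjusted p = 0.427). Without the 2 mice farthest from the median of that number, r was -0.67 for Npy1r, -0.54 for Npy2r and -0.44 for Npy5r, and between -0.30 and 0.01 for the other 4 genes. These values without the 2 mice were not tested.

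The slope also differed between the arms on d14. It averaged -0.047 ± 0.102 in Control d14 (n = 5) and 0.068 ± 0.028 in ExpOF d14 (n = 6; two-sided exact permutation p = 0.0281), and -0.002 ± 0.079 against 0.058 ± 0.065 on d14+3 (n = 6 each; exact p = 0.18). With the slope as a covariate, a fit chosen after seeing the data, Npy on d14 kept its call with a log2 fold change of -0.85 (adjusted p = 8.02e-05, edgeR). Agrp stood at -0.69 (adjusted p = 0.782), Acvr1c at 0.19, Corin at 0.09, Npy1r at 0.04, Npy2r at -0.10 and Npy5r at 0.12, so the positive values of the 5 genes on d14 were smaller in that fit and Npy2r changed sign. Between the control days, where 5.34% of all genes were called in that fit against 1.15% without the slope, Npy then passed (-0.36, adjusted p = 0.0129, edgeR), as did Agrp (-0.66, adjusted p = 0.0204) and Acvr1c (0.44, adjusted p = 0.0132). On d14+3 the value for Npy was -0.43 (adjusted p = 0.0947, edgeR).

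Genes linked to these 7 by function were counted on lists. The part of the length slope in the values of these lists was not tested. Of the wider NPY family, 6 of 10 genes were measured above the filter. Pyy and Ppy, the related peptides, Npy6r and the peptidase gene Xpnpep2 were not. Besides Npy and the 3 receptor genes above, this left Npy4r, the pancreatic polypeptide receptor gene, with under 1 CPM in every group mean (0.563 ± 0.308 in Control d14 and 0.645 ± 0.101 in ExpOF d14), and Dpp4, whose product trims NPY (1.70 ± 0.614 and 1.50 ± 0.124 CPM). Neither was called on either day. Of 10 regulators of Npy and Agrp transcription, none was called on d14, and 4 had p under 0.05, all higher in ExpOF, beside 13.1% of all genes higher with such a p. Stat3, the transducer of leptin signalling, had the smallest p (84.2 ± 4.72 and 94.6 ± 2.53 CPM, log2 fold change 0.17, adjusted p = 0.135, edgeR) and Foxo1 the largest (0.05, adjusted p = 0.694). Between the control days 2 of the 10 were called, both lower on d14+3. These were Bsx, a homeobox gene needed for Npy and Agrp expression (7.82 ± 1.11 to 5.22 ± 0.257 CPM, log2 fold change -0.58, adjusted p = 0.0067, edgeR), and Otp, a homeobox gene of AgRP and other hypothalamic neurons (37.2 ± 4.94 to 27.1 ± 3.66 CPM, -0.46, adjusted p = 0.0447). Foxo1 had the largest p of the list there too (-0.06, adjusted p = 0.806).

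Receptors that AgRP neurons carry for hormones and transmitters showed no call on d14. Of 10, 7 were higher and 2 had p under 0.05, a smaller share than the 26.7% of all genes, with Htr1b, a serotonin receptor gene, at the smallest p (log2 fold change 0.42, adjusted p = 0.14, edgeR) and Ghsr, the ghrelin receptor gene, at the largest (0.02). Of 4 genes of GABA synthesis and transport, 3 were higher, with Gad2 at the smallest p (0.26, adjusted p = 0.147) and Slc32a1 at the largest (-0.02). Peptide processing and granule genes leaned down, 9 of 10 being lower and 6 having p under 0.05, beside 13.6% of all genes lower with such a p. Scg2, a granin, had the smallest p (1215 ± 64.9 and 1096 ± 47.2 CPM, log2 fold change -0.15, adjusted p = 0.135, edgeR) and Pcsk2, a prohormone convertase gene, the largest (-0.02). Scg2 was also the 1 gene of this list called between the control days (-0.23, adjusted p = 0.0254).

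On the melanocortin side, 4 of 7 genes were lower and 3 higher on d14, with Atrn at the smallest p (log2 fold change 0.20, adjusted p = 0.149, edgeR) and Mc4r, the receptor that agouti-related protein blocks, at the largest (0.03, adjusted p = 0.871). Of 12 activin pathway genes listed beside Acvr1c, all 12 had values above 0 on d14, beside 46.6% of all tested genes. Of the 12, 5 had p under 0.05, all without a call, while 13.1% of all genes were higher with such a p. Tgfbr1 had the smallest p (0.32, adjusted p = 0.141) and Gdf11, a ligand of the family, the largest (0.02, adjusted p = 0.87). Gdf11 was called between the control days (31.9 ± 4.17 to 39.7 ± 3.78 CPM, 0.32, adjusted p = 0.0459), in the direction of Acvr1c. Of 6 measured genes of natriuretic peptides and their receptors, related to Corin by substrate, 4 were lower on d14 and none had p under 0.05. Npr1 had the smallest p (-0.31, adjusted p = 0.34) and Npr3 the largest (-0.08, adjusted p = 0.908).

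**Figure D5:**
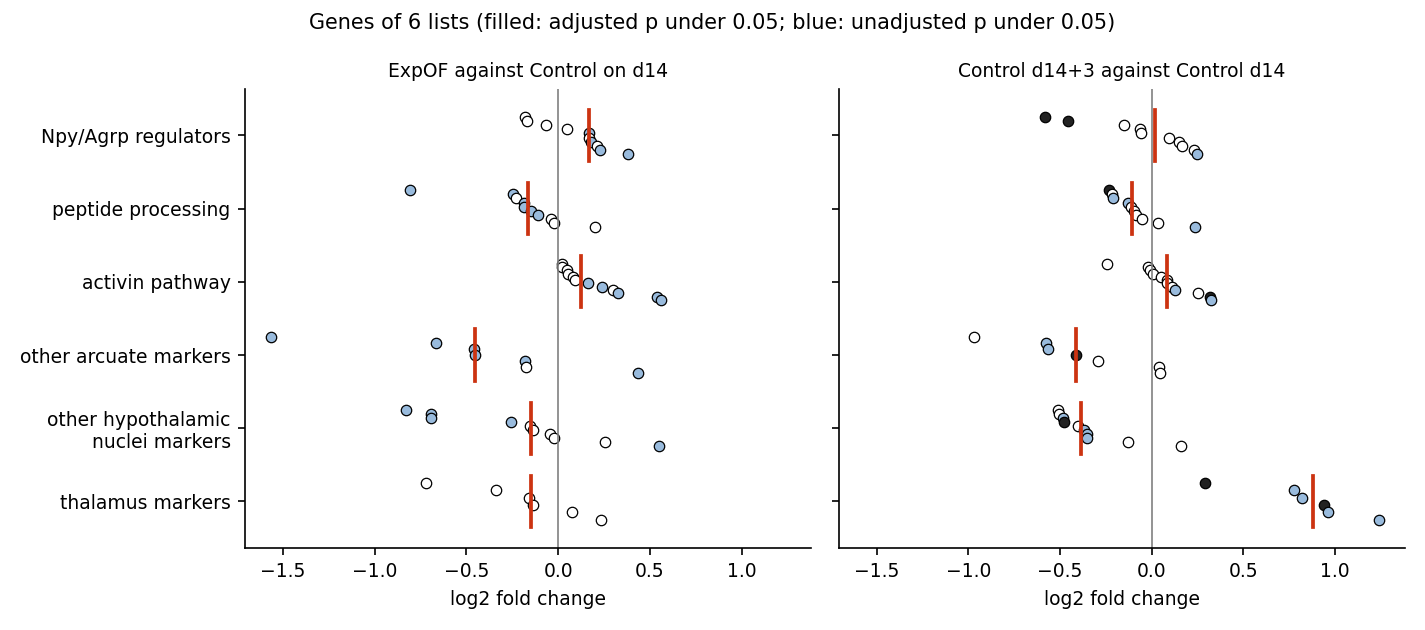
Log2 fold changes of single genes on 6 lists for ExpOF against Control on d14 (left) and Control d14+3 against Control d14 (right). Filled points passed an adjusted p of 0.05, blue points had an unadjusted p under 0.05, and red bars are list medians. The thalamus list has a median of 0.88 between the control days and -0.15 on d14, and the other arcuate markers -0.41 and -0.45.

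The genes whose levels most resembled those of Npy and Agrp were sought among 14173 genes with a mean of at least 50 counts, by Pearson r of log2 CPM over 23 libraries. For Npy these were Atp1b3 (r = 0.86), Fabp7, Ttc1, 2010001A14Rik and Armc10 (0.83), and for Agrp they were Naaa (0.82), Rbm43, Lhx1os, Dnajc9 and 9530068E07Rik (0.78). With group means removed they were Tmem208 (0.85), Rhoa, Ift43, D17H6S53E and Il34 (0.82) for Npy, and Snrpd3 (0.79), Bbs2, Arfrp1, Lhx1os and Rgs19 (0.72) for Agrp. Lhx1os was the gene found by both measures for Agrp, and no gene was found by both for Npy. All points share the libraries' depth and length slope, and the values are a description.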

How the data were processed

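Total RNA of 24 mouse hypothalami was made into stranded poly-A libraries. Per the study's methods, the authors aligned reads with STAR to mm10 and summarised them onto GENCODE genes with featureCounts 1.6.4. The deposited table holds raw counts per gene. Counting by strand is not given in the sources used here, so overlapping antisense genes cannot be told apart. The labels do not name the mouse that the study removed. It was taken to be Control d14 replicate 4, from the mean counts in the study's own results. Normalised means over all libraries but that one matched them most closely (median difference 0.313%). The next closest match, without Control d14 replicate 2, differed by 4.53%.

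Counts were normalised by TMM and tested with edgeR 4.0.16 (R 4.3.3; robust quasi-likelihood, 4 groups in 1 fit, low genes removed by filterByExpr, which asked for 10 counts in enough libraries and 15 in all), with Benjamini-Hochberg adjustment over 18992 genes and a threshold of 0.05. Standard errors were derived from the fold change and its F statistic. CPM values are TMM-scaled, and log2 CPM used a prior count of 2. On simulated data for ExpOF against Control on d14, 200 of 200 genes changed by a log2 fold of 1 were recovered, with 12 other calls among 18746 genes. The changed genes were drawn from those with ample counts, and the spread was set in advance. The simulated libraries held no length slope, cohort or tissue variation, so the recovery does not measure power in the real data. DESeq2 1.42.0 was an alternative. Exact permutation tests (SciPy 1.17.1, NumPy 2.4.6) were two-sided, and correlations used 100000 permutations within groups. The length slope of a library is the slope of its genes' log2 CPM deviations on log2 exon length.

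Each library came from a separate mouse. No 2 libraries of a group agreed within sampling noise (60 pairs, lowest chi-square per degree of freedom 2.78). Depth is given in the report, and the precision of low genes such as Corin is limited by counting. The 7 genes and the gene lists were chosen with earlier results of these data known. Of each list, the genes past the threshold and those with the smallest and largest p were to be named (for lists of glia, vessels and striatum, which held no call, counts are given), and 4 covariates were added after seeing the data (the length slope, the profile of the removed library, and the levels of arcuate and of thalamus markers). Promoter windows and motifs came from RefSeq on GRCm38.p6, and 55144 of 55471 gene IDs had a symbol.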

Additional observations from a re-analysis of the deposited data

Results flagged for a closer look

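Corin in ExpOF d14 replicate 5 was at 0.676 CPM, far below the other 5 mice of its group, which lay between 1.34 and 1.97 CPM. That value rests on 6 counts, in the library with the lowest total of the series (8928182 counts). Corin in ExpOF d14+3 replicate 6 was at 2.30 CPM, far above the other 5, at 1.21 to 1.46 CPM. In both cases the gap to the nearest mouse exceeded Dixon's critical share of the group's range (0.634 and 0.707). With 28 groups of values examined, such gaps arise by chance in about 1 of 20 groups.

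The library that the study removed, Control d14 replicate 4, held Npy at 51.6 CPM and Agrp at 16.6 CPM, above the 5 other Control d14 libraries (18.1 to 28.4 and 5.86 to 11.1 CPM when all 24 libraries are scaled together). In the same library Corin had 0 counts, which allows up to 3 counts and covers counting error only, and Acvr1c (3.79 CPM), Npy1r (8.50), Npy2r (9.63) and Npy5r (2.05) were all below the other controls. Its length slope was -0.516, below those of all other libraries (lowest -0.147).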

How the results depend on the processing

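Replicate numbers did not pair the mice (33 pairs of equal number, median r = -0.03, 6 over 0.1; other pairs 0.01), and a replicate block left 1 gene called on d14 and 33 between the control days in place of 218, with the cause not tested. Npy on d14 was called in 14 of 16 other settings and in all 11 fits that left out a library (log2 fold change -1.18 to -1.04). The exceptions were the July mice alone (-1.05) and the September mice alone (-1.14), with fewer mice. Precision is limited by 5 or 6 mice a group and, for Corin, by counts under 100 per library. "Only the 2 groups compared" could not be run for the interaction.

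Counts of genes called moved most. On d14 they were 166 with DESeq2, 2 with only the 2 groups, 0 in either cohort, and 1 to 4220 with a library left out, the last without Control d14 replicate 1. On d14+3 they were 55 with DESeq2, 26 with RIN as a covariate and 0 to 0 with a library left out. Between the ExpOF days they were 202 with DESeq2, 28 with at least 10 counts in every library, 123 with only the 2 groups, 78 with cohort and extraction round, 234 with the length slope, 181 with the removed library's profile, and 0 to 157 with a library left out, the last without ExpOF d14+3 replicate 3. Between the control days they were 531 with DESeq2, 0 with only the 2 groups, in either cohort and with thalamus markers, 1015 with the length slope, 1052 with the removed library's profile, 48 with arcuate markers, and 24 to 313 with a library left out (24 without Control d14 replicate 2).

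Agrp on d14 passed with DESeq2 (-0.89) and ran from -1.004 to -0.79 with a library left out. Npy on d14+3 passed with DESeq2 (-0.56). The Npy to Agrp ratio lost its p under 0.05 in single cohorts, at -0.24 (July) and -0.25 (September) on d14, -0.29 and -0.49 on d14+3, and 0.21 and 0.30 between the control days. With a library left out it ran from -0.29 to -0.18, from -0.47 to -0.30 and from 0.20 to 0.33.

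Changes of sign concerned the following values, most of them near 0. With the length slope these were Npy2r on d14 (-0.0952), Npy1r between the control days (-0.00035) and the interactions of Npy1r (0.0521) and Npy2r (0.101). With the removed library's profile they were Npy2r on d14 (-0.117), Npy2r (-0.00699) and Npy5r (-0.0037) on d14+3, and the interactions of Npy1r (0.0496) and Npy2r (0.110). With thalamus markers they were, between the ExpOF days, Npy (-0.0318), Agrp (0.0637), Corin (0.0783), Npy2r (0.230) and Npy5r (0.0539), and Npy2r between the control days (0.267). With arcuate markers they were the interactions of Npy1r (0.0307) and Npy2r (0.0821). In July mice they were, between the ExpOF days, Corin (0.108), Npy2r (0.0082) and Npy5r (0.08995), and the interactions of Npy1r (0.0414) and Npy2r (0.0417). In September mice they were Npy5r on d14+3 (-0.0234) and between the control days (-0.0310), Agrp between the ExpOF days (0.0556) and the interaction of Corin (-0.33). With RIN they were Npy5r between the control days (-0.0026) and the interaction of Npy2r (0.0308). With all 24 libraries they were Npy2r between the control days (0.0221), the interaction of Corin (-0.11) and the correlation of Agrp with Npy5r (-0.46). With a library left out, Agrp ran from -0.134 to 0.0632 and Npy1r from -0.0303 to 0.0833 between the ExpOF days, Npy5r from -0.0101 to 0.116 between the control days, and the interactions of Corin from -0.0891 to 0.233, Npy1r from -0.144 to 0.0302 and Npy2r from -0.149 to 0.0667.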
